A study of Mus musculus with 12 samples.

Results

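Ctla2a and Ctla2b are a pair of neighbouring mouse genes that code for small proteins resembling the front part of a cathepsin. They are 2 of the 21729 genes in a count table of 12 single cultured cardiac progenitor cells (CPCs). The pair was chosen by its level in these cells: Ctla2a had the highest mean of the table in CPM (counts per 1000000 counts of the cell), Ctla2b is its close relative, and cell 10 was set apart. Levels that this choice used are therefore given as a description. The cells form 1 group. They came from hearts of 12-week-old female FVB mice, 2 of which were pooled for a preparation, as c-Kit+ cells depleted of blood lineages with magnetic beads. They were grown on gelatin in DMEM with serum, insulin, transferrin and selenium, LIF, basic FGF, EGF, B27 and N2 up to passage 5, and were then picked by mouth pipette for full-length cDNA libraries (Smart-Seq v4). The labels name no animal or culture for a cell, so the 12 cells count as 1 sample and no test was made between them.

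A cathepsin is a protease of the lysosome, and cathepsin L and its relatives are made with a propeptide that blocks the active site until it is cut off. The proteins of the Ctla2 family resemble such a propeptide without the protease that would follow it. Ctla2a is known as an inhibitor of cathepsin L. Both genes were first found in activated mouse T cells and mast cells, and they lie among placental cathepsin genes on chromosome 13.

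Total counts ran from 3453708 to 5690184 per cell, so 3 counts, the upper limit that a count of 0 allows, correspond to 0.527 to 0.869 CPM. Reads carry no molecular identifiers, and the intervals given here cover counting error only. Markers of other cell types were looked up in every cell. Counts were found for 13 of 17 endothelial markers, 10 of them in at least 3 cells, and their summed level was 12678 CPM in cell 10 against 79.8 to 427 CPM in the other 11 cells. Cldn5, Vwf, Sox17 and Sox18 were at 0 in all 12 cells. Of 10 fibroblast markers, each with a count in some cell, the summed level was 219 CPM in cell 10 and 709 to 6764 CPM elsewhere. Among 12 counted T cell marker genes, 5 had reads, with a summed level of 12.96 CPM in cell 10 and 0 to 3.47 CPM elsewhere, and Cd3d, Cd4 and Cd8b1 were at 0. Of 12 mast cell markers 6 had a count and the summed level reached at most 5.93 CPM. Of 4 general leukocyte markers 2 had a count, with a sum of at most 9.70 CPM, and of 5 placental markers 3 had one, led by Prl2c2 with up to 2269 CPM in cell 3. Kit, the gene of the sorted c-Kit protein, had 21 counts in cell 10 and none in the other 11 cells.

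Both genes lie on the minus strand of chromosome 13 (mm10, gene models of GENCODE vM21). Ctla2a (ENSMUSG00000044258.10) spans chr13:60934155-60936625 with 5 exons and a transcript of 1373 bases. Ctla2b (ENSMUSG00000074874.10) spans chr13:60895350-60897447, also with 5 exons, and its main transcript has 842 bases. They are 36707 bases apart. The annotated proteins have 137 and 113 residues. The Ctla2b protein aligned from its first residue to residues 25 to 137 of Ctla2a, with 90.3% of 113 positions identical, and the annotated start codon lies in exon 1 of Ctla2a but in exon 2 of Ctla2b.

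The third exon is coding in both genes and shows how close the copies are. The sequences are those of the reference genome, with capitals at the 3 positions of 123 that differ between the copies.
Ctla2a exon 3 (chr13:60935547-60935669, minus strand): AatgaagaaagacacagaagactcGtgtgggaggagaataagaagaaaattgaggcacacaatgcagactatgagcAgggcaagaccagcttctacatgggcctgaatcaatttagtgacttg
Ctla2b exon 3 (chr13:60896238-60896360, minus strand): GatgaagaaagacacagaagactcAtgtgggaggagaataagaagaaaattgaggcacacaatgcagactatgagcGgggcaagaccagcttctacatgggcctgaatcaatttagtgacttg

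Identity was 96.2% over 339 aligned coding bases and 88.8% over 839 aligned bases of the transcripts, and the longest identical stretch had 91 bases. Reads counted here had to map to 1 place. Of 1299 windows of 75 bases in the Ctla2a transcript, 29 (2.23%) also occur in Ctla2b, and 29 (3.78%) of the 768 windows of Ctla2b occur in Ctla2a. In addition to being compared with each other, the windows were looked up in genes that do not overlap the pair: 37 windows of Ctla2a (2.85%) occur in transcripts of 6 such genes, and 0 of Ctla2b do. Most of both transcripts can thus be told apart from each other and from annotated transcripts of genes elsewhere. Sequence outside annotated transcripts was not searched, and counts of such close copies remain uncertain. The annotated read-through genes Gm49391, Gm49392 and Gm49393 overlap the pair and are not among the counted genes. Transcripts of Gm49391 hold 269 windows of Ctla2a (20.7%), and those of Gm49391 and Gm49392 hold 621 of Ctla2b (80.9%). No shared window was found for Gm49393. Reads from the shared stretches cannot be told apart from those of the pair.

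The region before the start was compared because both genes were highest in the same cell. The 250 bases before each start are shown from the RefSeq set (GRCm38.p6, minus strand), with capitals at matches of an AP-1 motif and of a TATA box.
Ctla2a (chr13:60936626-60936875): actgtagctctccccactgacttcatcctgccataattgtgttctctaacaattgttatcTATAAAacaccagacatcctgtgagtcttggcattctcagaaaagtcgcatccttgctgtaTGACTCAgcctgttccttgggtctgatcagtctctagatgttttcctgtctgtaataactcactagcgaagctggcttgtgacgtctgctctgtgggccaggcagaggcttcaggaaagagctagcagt
Ctla2b (chr13:60897448-60897697): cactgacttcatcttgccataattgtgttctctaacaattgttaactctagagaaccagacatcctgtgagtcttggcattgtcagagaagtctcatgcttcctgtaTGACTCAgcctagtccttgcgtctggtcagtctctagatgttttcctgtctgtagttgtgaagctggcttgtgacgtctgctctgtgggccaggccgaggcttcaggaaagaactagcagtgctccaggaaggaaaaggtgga

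These windows were 91.2% identical over 228 aligned bases, with a longest identical stretch of 36. On a search of both strands, the AP-1 letters TGANTCA matched once in each gene, 129 bases before the start of Ctla2a and 143 bases before that of Ctla2b. This match stands in 6.75% of 32851 mouse promoter windows of the same length. The TATA box, searched as TATAAA, matched once in Ctla2a, 190 bases before the start, and not in Ctla2b (12.4% of windows). The E-box CANNTG matched once in each (66.2% of windows), GGAA, the core letters of an ETS site, matched 3 and 5 times (93.4%), and GATA matched once in Ctla2a (53.6%). No match was found for the CCAAT box (spelled as named). The CRE letters TGACGTCA had none in either window. The GC box, searched as GGGCGG, had none. The letters of a TEAD site, GGAATG, had none. Matches of different motifs that overlap were each counted, and a match describes letters only.

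Ctla2a was counted in all 12 cells, and it was by far highest in cell 10. There it had 338847 counts, or 63620 CPM, which is 6.36% of all counts of the cell (exact 95% Poisson interval 63406 to 63834 CPM). The next cells were cell 3 with 9672 CPM, cell 6 with 5477 CPM, cell 2 with 4269 CPM, cell 7 with 3541 CPM and cell 1 with 3467 CPM. Cells 5, 12, 11, 4 and 8 followed at 2719, 2711, 2254, 1899 and 1356 CPM. Cell 9 was lowest, with 1131 counts or 237 CPM (223 to 251 CPM). In this order the counting intervals of neighbours overlapped for cells 12 and 5 and for cells 1 and 7, and not in the other 9 of 11 neighbouring pairs. A gap of 6.58-fold separated cell 10 from cell 3, and one of 5.72-fold separated cell 9 from cell 8.

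The mean of Ctla2a was 8435 ± 17543 CPM (SD, 12 cells), and cell 10 gave 62.9% of the summed CPM. The 9 genes next in mean CPM were Fth1 (the ferritin heavy chain), the calcium-binding S100a6 and Anxa2, the lectin Lgals1, the intermediate filament gene Vim, the mitochondrial mt-Co1 and mt-Cytb, the peroxidase Prdx1 and the matrix gene Fbln2. Fth1, just below Ctla2a, had 7995 CPM. Without cell 10 the mean was 3418 ± 2512 CPM (SD, 11 cells) and Ctla2a ranked 14th. By the median over 12 cells, 3093 CPM, it ranked 12th. Within single cells it ranked first in cell 10, 5th in cell 3, 7th in cell 6 and 10th in cell 2, and its lowest ranks were 76th in cell 8 and 860th in cell 9. Abundance of Ctla2a was thus shared by most cells, and its first place rested on 1 cell. CPM is not corrected for length. Per exonic length, as TPM, its mean over 12 cells ranked 3rd.

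Ctla2b was also counted in all 12 cells, at much lower levels. Cell 10 was again highest, with 3013 counts or 566 CPM (546 to 586 CPM). Cells 6, 2 and 4 had 190, 182 and 144 CPM. Cells 3, 7, 1, 12, 11, 5 and 8 lay at 93.1, 85.2, 84.3, 77.5, 70.2, 57.3 and 48.5 CPM, and cell 9 was lowest, with 106 counts or 22.2 CPM (18.2 to 26.9 CPM). Counting intervals of neighbours in this order overlapped in 7 of 11 pairs, so neighbours among cells 8, 5, 11, 12, 1, 7 and 3, and cells 2 and 6, were not resolved at this depth. The mean was 135 ± 145 CPM (SD, 12 cells), rank 1595 of the table (797 as TPM, per exonic length), and 95.9 ± 54.0 CPM over 11 cells. Cell 10 and cell 9 were thus the highest and the lowest cell for both genes, while cell 3, the second for Ctla2a, was 5th for Ctla2b. The places of cells 10 and 3 for Ctla2b are uncertain for reasons given with the ratio of the genes.

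**Figure D1:**
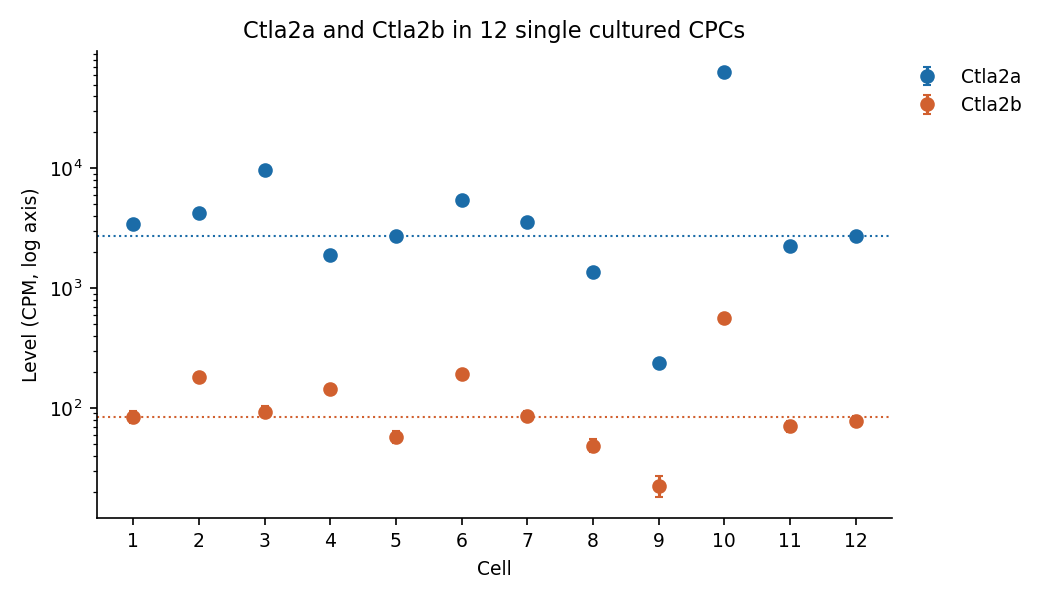
Level of Ctla2a (blue) and Ctla2b (orange) in CPM on a log axis in each of the 12 cells, with exact 95% Poisson intervals that are mostly smaller than the points; dotted lines give the median of the 11 cells other than cell 10 (2719 and 84.3 CPM). Cell 10 is highest and cell 9 lowest for both genes.

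Cell 10 lay 23.4-fold above the median of the other 11 cells for Ctla2a (2719 CPM) and 6.71-fold for Ctla2b (84.3 CPM). Against the highest other cell, the ratios were 6.58 and 2.97. Of 12366 genes with counts in at least 3 cells, 841 (6.8%) were at least 4-fold higher in cell 10 than the median of the others on the log2(CPM + 1) scale, and 1525 (12.3%) were at least 4-fold lower. The choice of the pair used this contrast, so nothing is read from both genes being among the higher ones. The same holds for their ranks by size of the difference, given below as a description. Cell 10 also exceeded each other cell for 1472 genes (11.9%), the pair among them. By size of the difference Ctla2a was 145th and Ctla2b 505th of the 12366 genes, and each gene with a larger difference than Ctla2a had a median under 100 CPM in the other 11 cells. Among the 100 genes whose median over the other 11 cells was at least 1000 CPM, Ctla2a had the largest difference. The second was Sparc, a matrix protein named here after its values were seen, with 6623 CPM against a median of 2439 CPM, or 2.72-fold. Both genes together took 6.42% of the counts of cell 10 and at most 0.977% in another cell, which lowers the CPM of other genes of cell 10. Leaving them out of its total raised the other genes by 6.86%. Each of the 10 endothelial markers with counts in at least 3 cells was 4-fold higher in cell 10. One of them, Tie1, reached 3 cells only with cell 10 itself, so its high value there was built into the choice, and 9 of 9 were 4-fold higher among markers with counts in at least 3 of the other 11 cells. Of 7 fibroblast markers with counts in at least 3 cells, 4 were 4-fold lower in cell 10 (Col1a1, Col1a2, Col3a1 and Ddr2) and Thy1 was lower by less. Dcn was at 0 both there and in the median of the others, and Pdgfra went the other way, at 175 CPM against a median of 65.4 CPM. The part of these markers in the level of the pair was not tested.

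**Figure D2:**
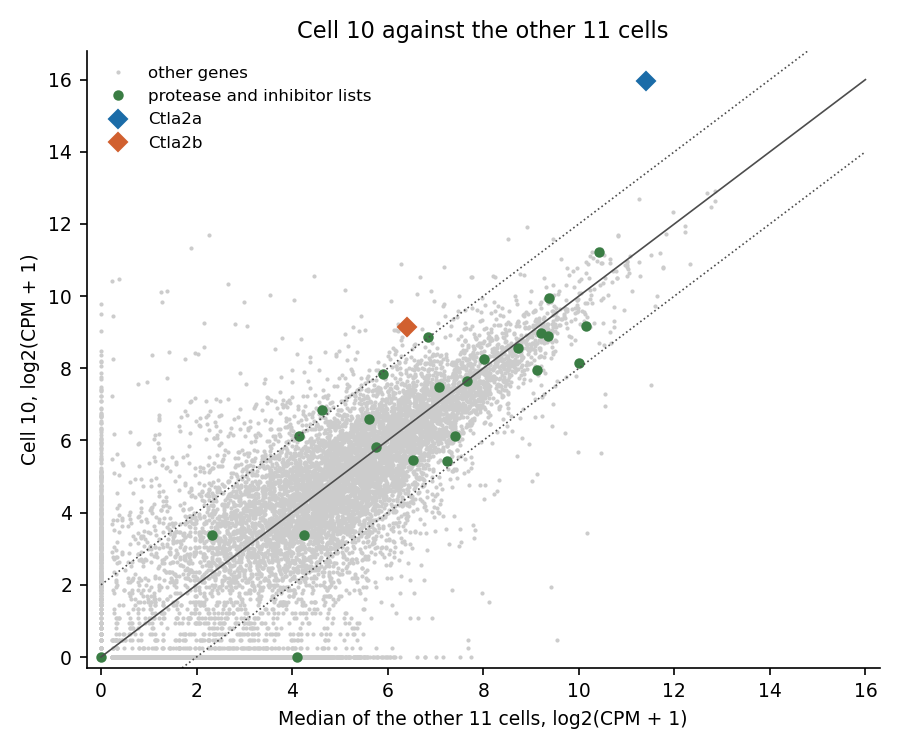
Level in cell 10 against the median of the other 11 cells, both as log2(CPM + 1), for 12366 genes (grey), with the genes of the protease and inhibitor lists in green; the solid line marks equal levels and the dotted lines 4-fold differences. Ctla2a (blue) lies 4.55 and Ctla2b (orange) 2.73 above the line of equal levels, and most green points lie between the dotted lines.

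Apart from cell 10, the level of Ctla2a still varied, and much of that spread came from cell 9. Over the other 11 cells the SD of log2(CPM + 1) was 1.37, against a median of 0.564 for the 100 genes with the highest median level. Aldh1a1 and Hmox1 had a larger SD, and both are named after their values were seen. The spread from the lowest to the highest of the 11 cells was 40.8-fold for Ctla2a and 2.96-fold for Fth1, the gene that followed it in mean level. For Ctla2b the SD was 0.877, and of the 100 genes nearest to it in median level 12 had a larger one. Without cell 9 as well, the range over the remaining 10 cells was 7.13-fold for Ctla2a and 3.92-fold for Ctla2b, and the SD of log2(CPM + 1) was 0.80 and 0.66. The median SD of the 100 abundant genes was then 0.54, and Ctla2a ranked 13th of them by SD. Cell 9 had the highest summed level of 7 cell cycle genes named by the study (Cdk1, Ccnb2, Aurka, Aurkb and the centromere genes Cenpa, Cenpe and Cenpf), at 3725 CPM, and cell 11 the lowest, at 33.7 CPM. Spearman's rho of that sum with Ctla2a was -0.44 over 12 cells and -0.45 over 11. The rank correlation of Ctla2a with the total count was -0.36 over 12 cells and -0.55 over 11, and with the summed endothelial markers 0.75 and 0.67. That sum was mostly Eng outside cell 10, from 37.1% of it in cell 5 to 91.4% in cell 11, and without Eng the rank correlation was 0.54 and 0.40. For Ctla2b, rho with the endothelial sum was 0.35 and 0.15. The cells share 1 culture protocol and differ in depth, and the part of these measures in either level was not tested.

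Both genes moved together across cells, but not in proportion. Spearman's rho between them was 0.80 over 12 cells and 0.74 over the 11 cells other than cell 10, and Pearson's r of log2(CPM + 1) was 0.88 and 0.77. Ctla2a had more counts than Ctla2b in each of the 12 cells. Per kilobase of transcript, the median level was 2253 CPM for Ctla2a and 101 CPM for Ctla2b, and the ratio of the genes had a median of 20.6. The count of Ctla2b was lowest relative to that of Ctla2a in cell 10, at 0.889%, and in cell 3, at 0.962%, which are the cells with the most Ctla2a. It was highest in cell 9, at 9.37%, the cell with the least Ctla2a, and next in cell 4, at 7.58%. Ctla2a is the denominator of this percent, so an inverse order with its level is partly built in. The other 8 cells lay between 2.11% in cell 5 and 4.27% in cell 2. As a share of the counts of both genes, Ctla2b took 0.881% in cell 10 (exact 95% binomial interval 0.850 to 0.913%), 0.953% in cell 3 (0.857 to 1.06%), 7.05% in cell 4 (6.52 to 7.61%) and 8.57% in cell 9 (7.07 to 10.3%). The first pair of intervals overlapped, as did the second, and the pairs lay apart from each other and from the other cells. How many Ctla2a reads were counted as Ctla2b was not measured. The part of such reads, and of reads from the read-through genes, in the correlation of both genes was not tested. In cell 10 a share of 0.889% of the Ctla2a count equals the whole Ctla2b count, so the level of Ctla2b in that cell, and its 6.71-fold difference, are uncertain. The same holds for cell 3, where that share would leave 26.8 of the 353 counts of Ctla2b (7.60%) and its place among the cells is uncertain too. In the other 10 cells it would leave 57.8 to 90.5% of the count.

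**Figure D3:**
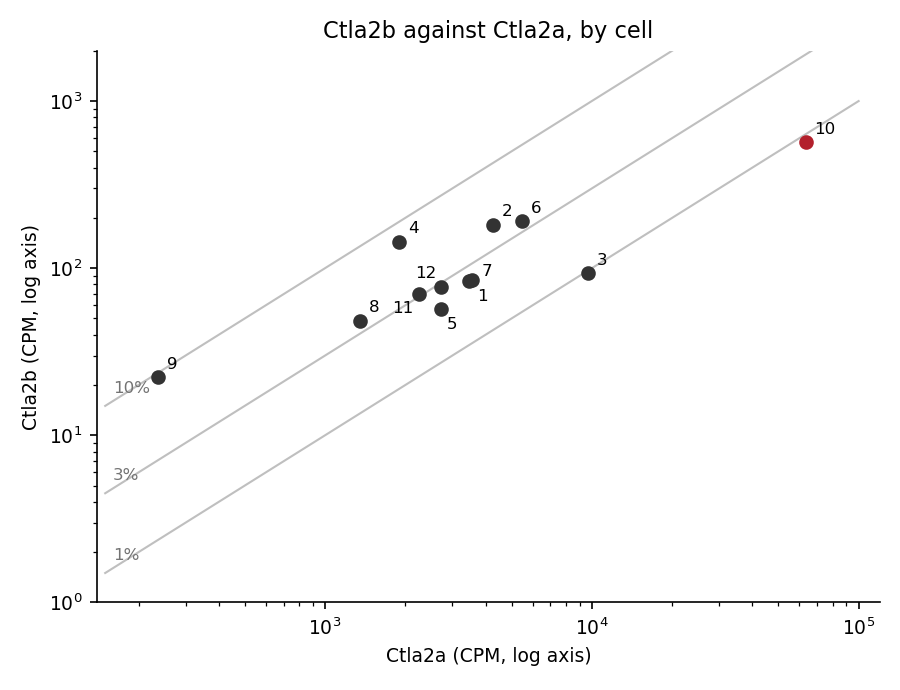
Ctla2b against Ctla2a in CPM, both on log axes, with 1 point per cell labelled by its number, cell 10 in red, and grey lines where Ctla2b is 1, 3 and 10% of Ctla2a. Cells 3 and 10 lie at the 1% line and cell 9 near the 10% line.

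The annotated proteins of the pair resembled the front part of cathepsin L-like proteins. In local alignments of proteins translated from the reference transcripts, residues 16 to 135 of Ctla2a aligned with residues 5 to 132 of the 334 residues of cathepsin L (Ctsl), with 35.8% of 120 aligned positions identical. The cathepsin-like genes of the chromosome 13 cluster were closer: 4930486L24Rik had 49.2% of 122 positions identical, Ctsll3 48.3% of 120 and BC051665 50.8% of 120. In each of these the match also ended at residue 132 or 133, far before the end of the protein. Cathepsin K (Ctsk) had 37.4% of 115 positions identical, and for cathepsins B (Ctsb) and Z (Ctsz) the best local match covered 12 and 37 positions.

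Cathepsin L, the protease that Ctla2a is known to inhibit, did not share the high value of cell 10. Ctsl was at 505 CPM there, and between 353 CPM in cell 9 and 1894 CPM in cell 3 in the other 11 cells, whose median was 590 CPM. The highest Ctsl stood in the cell with the second highest Ctla2a and the lowest Ctsl in the cell with the lowest Ctla2a. The rank correlation of Ctsl with Ctla2a was 0.56 over 12 cells and 0.72 over the 11 cells without cell 10, and with Ctla2b it was 0.63 and 0.78. Per kilobase of transcript, Ctla2a stood at 181 times Ctsl in cell 10, at 0.963 times in cell 9, and between 3.95 times in cell 8 and 11.5 times in cell 6 in the other 10 cells. Ctla2a RNA thus exceeded Ctsl RNA per length in 11 of 12 cells, by very different factors.

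The papain-like cathepsins went both ways in cell 10. Of 21 genes, 12 had a count and 10 had counts in at least 3 cells. Of these 10, 1 was at least 4-fold higher in cell 10 and 0 were 4-fold lower, beside 6.8% and 12.3% of all 12366 genes, so the counts were near those shares. The median log2 difference of the 10 was 0.00, beside -0.11 over all genes, and it rests in part on Ctsc and Ctsw, which were at 0 both in cell 10 and in the median of the others. Of the 8 remaining members 4 lay above the median of the other cells and 4 below, from -0.87 for Ctsf to 2.22 for Ctso on the log2 scale, with a median of 0.39. Ctso, at 115 CPM against a median of 23.8 CPM, was the higher one. Ctsb, the most abundant member, was at 2394 CPM in cell 10 and 1021 to 1941 CPM elsewhere. The others were within 4-fold of the median in cell 10: Ctsz had 479 CPM (median of the other cells 651), Tinagl1 198 CPM (203), Ctsk 95.8 CPM (47.6), Ctsh 227 CPM (58.9) and Ctsf 9.39 CPM (17.97). Ctsc, an activator of granule proteases, had counts in 4 cells and at most 33.5 CPM, in cell 9.

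The list of other inhibitors of cysteine proteases is broad, and not each member is established as acting on such proteases. Of its 8 members that could be compared, cell 10 had less than the median of the other cells for 7. It had less for 53.3% of all 12366 genes. Of 32 listed genes, 2 (Csta2 and Csta3) are not among the counted genes, 12 had a count and 8 had counts in at least 3 cells. None of the 8 was 4-fold higher in cell 10 and 1, Fetub, was 4-fold lower, with 0 counts in cell 10 against a median of 16.1 CPM, which is also near the shares over all genes. The median log2 difference of the 8 was -1.22, beside -0.11 over all genes. Cell 10 was the lowest of all cells for 5 of the 8, where it was for 13% of the 12366 genes. Cystatin C (Cst3), the main secreted inhibitor of cathepsins, had 577 CPM in cell 10 and a median of 1139 CPM elsewhere (397 to 3146). Cystatin B (Cstb), its counterpart inside the cell, had 248 CPM, below the 419 to 912 CPM of each other cell. Serpinb6a had 284 CPM against 403 to 2057, Cast (calpastatin, an inhibitor of calpains) 68.7 CPM against 82.0 to 346, and Cst6 42.1 CPM against 54.1 to 363, which also placed cell 10 lowest. Serpinb9, an inhibitor of granzyme B, had 43.4 CPM with a median of 91.6 CPM elsewhere. Serpina3g was the member above its median in cell 10, with 9.39 CPM or 2.35 times the median, and reached 25.0 CPM in another cell. Stfa2 was counted only in cell 7, at 24.9 CPM. The summed level of the list was 1272 CPM in cell 10 and 1795 to 6487 CPM in the other 11 cells.

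Of the 10 aspartic, serine and related lysosomal proteases, 8 had a count and 7 had counts in at least 3 cells. Lgmn (legumain, a protease that can process cathepsins) was 4-fold higher in cell 10, at 464 CPM against a median of 114 CPM, and 0 were 4-fold lower, again near the shares over all genes. Cell 10 lay above the median of the other cells for 6 of the 7, where it did for 38.9% of all 12366 genes, and the median log2 difference was 0.41, beside -0.11 over all genes. Ctsd had 993 CPM in cell 10 with a median of 667 CPM elsewhere, Ctsa 376 (426), Tpp1 303 (258), Scpep1 178 (133), Dpp7 55.6 (52.7) and Prcp 68.3 (16.6).

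**Figure D4:**
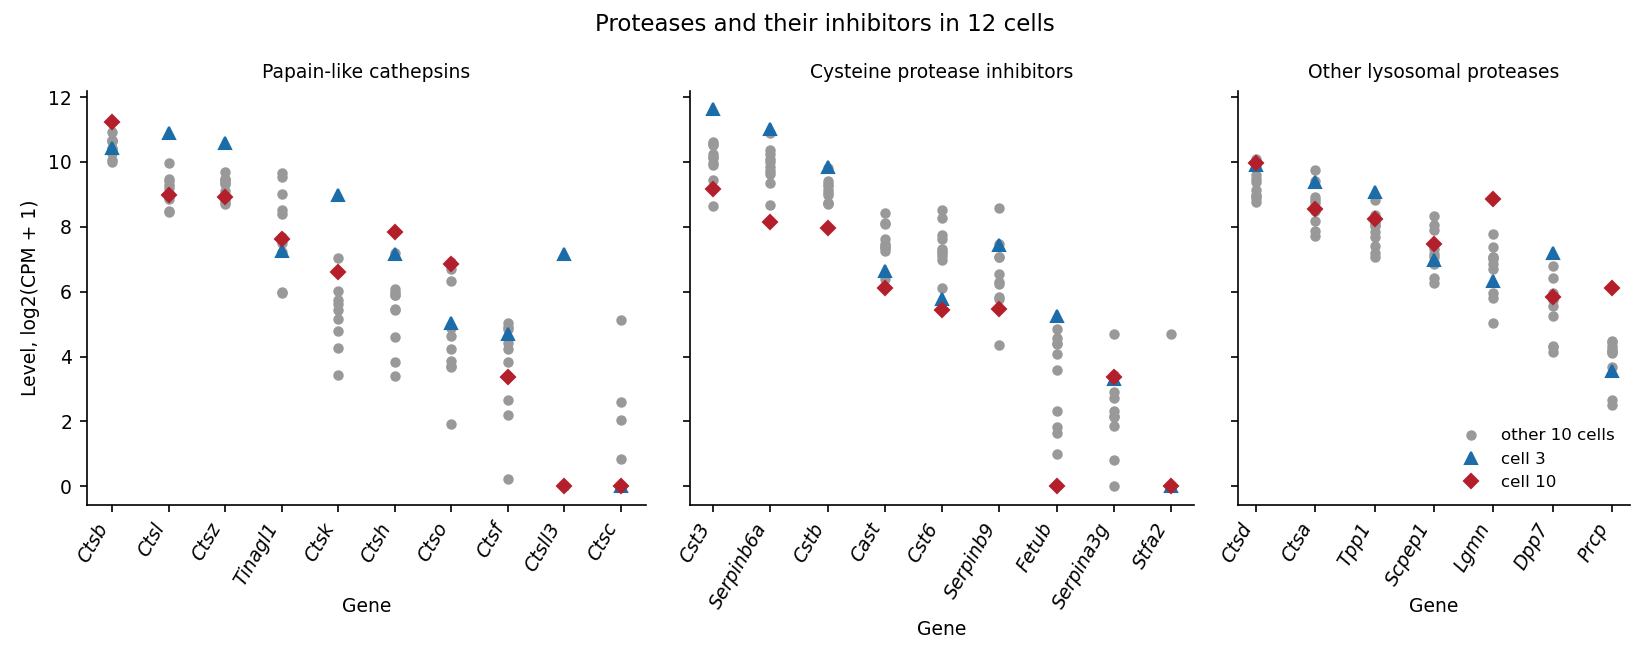
Level as log2(CPM + 1) of the list members that reached 10 CPM in any cell, with each list ordered by mean level. The lists are papain-like cathepsins, the broad list of cysteine protease inhibitors and other lysosomal proteases. Cell 10 is shown as red diamonds, cell 3 as blue triangles and the other 10 cells in grey. Cell 10 lies at the bottom for Serpinb6a, Cstb, Cast, Cst6 and Fetub, and cell 3 lies at the top for Ctsl, Ctsz, Ctsk and Cst3.

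Cell 3, the cell second in Ctla2a, was looked at after its values were seen. Of the 25 genes of these 3 lists with counts in at least 3 cells, 10 were highest in cell 3, where 7.01% of the 12366 genes were. They were Ctsl, Ctsk, Ctsw, Ctsz, Cst3, Cstb, Fetub, Serpinb6a, Tpp1 and Dpp7. Cell 10 was highest for 4 of the 25, Ctsb, Ctsh, Lgmn and Prcp, a share near the 11.9% of all genes.

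Of the genes near the pair on the chromosome, none but the pair was highest in cell 10. Within 500000 bases on either side, 18 genes are annotated as protein coding and 14 of them, the pair included, were among the counted genes. Counts were found for 7. The first counted gene beyond Ctla2b, 4930486L24Rik, was counted in all 12 cells. It was highest in cell 3, at 1155 CPM, followed by cell 2 at 359 CPM, and lowest in cell 9, at 3.35 CPM, and it had 28.7 CPM in cell 10 against a median over 12 cells of 35.4 CPM. Its rho with Ctla2a was 0.48 over 12 cells and 0.65 over 11, and with Ctla2b 0.47 and 0.61. Ctsll3 and BC051665, cathepsin L-like genes further along, were counted in cell 3 only, with 544 and 12 counts. Dapk1, a kinase of cell death, had counts in 7 cells, up to 26.5 CPM in cell 5. It stood at 10.1 CPM in cell 10 against a median of 1.45 CPM in the other 11 cells, a log2 difference of 2.19 that puts it among the genes 4-fold higher in that cell, although cells 5 and 2 had more. Tpbpb had 2 counts in cell 1. Tpbpa and the placental cathepsins Ctsj, Ctsq, Ctsr, Cts6, Cts7 and Cts8 were at 0 in every cell. Cell 3 was thus the highest cell for 3 cathepsin-like neighbours and the second for Ctla2a. Cell 10 was the highest for the pair only, and its place for Ctla2b is uncertain, as given with the ratio.

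**Figure D5:**
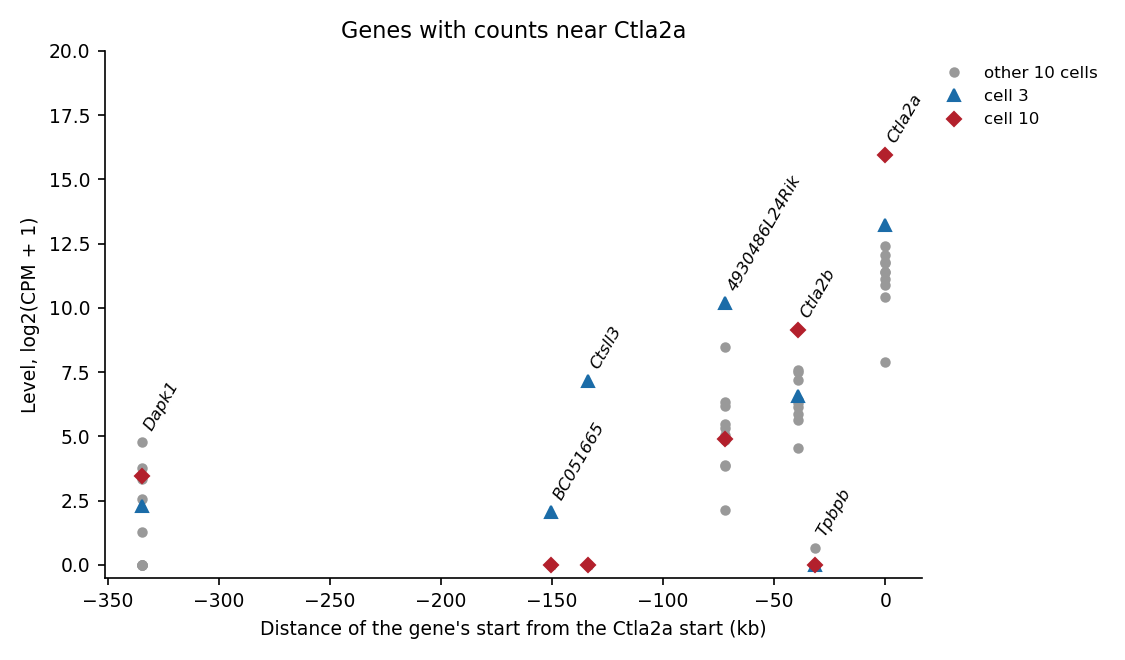
Level as log2(CPM + 1) of the 7 genes with counts near Ctla2a, placed by the distance of their start from the Ctla2a start in kb, with cell 10 as red diamonds, cell 3 as blue triangles and the other 10 cells in grey. Ctla2a and Ctla2b are highest in cell 10, and 4930486L24Rik, Ctsll3 and BC051665 are highest in cell 3.

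The genes most like the pair in their order across cells were taken from those with a mean of at least 10 CPM and counts in at least 6 cells, which left 8446 genes to compare with each member. Likeness was Spearman's rho over the 12 cells of the 1 group. For Ctla2a the first 10 included Twsg1, a secreted binder of bone morphogenetic proteins (rho 0.87), Rasgrp3, Car8, Cd200, Cebpd, Ikbke, Tctex1d2, Cd302 and Akr1b10 (0.82). Of the first 10, 6 were highest in cell 10, where 11.9% of the 12366 genes were. The order over 12 cells used cell 10, the highest for Ctla2a, so the choice favoured such genes and nothing is read from the 6. For example, Car8 had 387 CPM in cell 10 and a median of 3.73 CPM over 12 cells. Cd200, a surface glycoprotein, had 562 and 48.8 CPM, and Rasgrp3, a Ras exchange factor, 151 and 0.389 CPM. Car8 and Rasgrp3 passed the filter on the mean only through cell 10, since their means over the other 11 cells were 5.86 and 1.39 CPM, so their high value in that cell was built into the choice. Without cell 10 the first 10 were Atp5s, Herc6, Cyba, Kif13a, Akr1b10, Hadh, Twsg1, Btg2, Ndufa13 and Camk1, and 2, Twsg1 and Akr1b10, stood in both sets.

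For Ctla2b the first 10 were Polr2l, an RNA polymerase subunit (rho 0.90), Pxmp4, Tmem164, Nit2, Zfp992, Ctla2a (0.80), Zcchc6, Cd302, Dctn3 and Ap3m2 (0.77). Without cell 10 they were Smim8 (0.93), Polr2l, Pxmp4, Borcs5, Cyb5a, Tmem106b, Nudt14, Lyrm5, Hadh and Nit2, of which 3, Polr2l, Pxmp4 and Nit2, stood in both. Ctla2a was 6th for Ctla2b over 12 cells, and Ctla2b was 14th for Ctla2a. Over 11 cells these places were 42nd and 70th. Over 12 cells 15 other genes had a rho with Ctla2a at least as high as that of Ctla2b, and over 11 cells 71 had.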

How the data were processed

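Single cells were sequenced as full-length cDNA with Nextera XT libraries. According to the submitters' processing notes, reads were mapped to mm10 with STAR 2.5.2b, and the study kept reads that mapped to 1 place. The table deposited by the authors holds raw, unnormalized counts of reads for each gene in each cell; the counting program, annotation and strand rule are not given in the sources used here. Columns were matched to cells by name. CPM was the count divided by the total of the cell (3453708 to 5690184 counts) and multiplied by 1000000. Log2 differences used a pseudocount of 1 CPM and genes with counts in at least 3 cells. Poisson and binomial intervals were exact, at 95%, and cover counting error. Cells of 1 group with no named animal or culture were not treated as replicates, so no p-value was computed. Doublets were not called in 12 hand-picked cells.

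Positions and transcripts came from GENCODE vM21, promoters from RefSeq (GRCm38.p6, both genes matched); both have the C57BL/6J sequence, while the mice were FVB. Gene symbols were matched to a length for 98.4% of the table. TPM used the exonic length, and ratios between genes used the main transcript. Local protein alignments used BLOSUM62.

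The named genes were the pair, the 9 genes next in mean CPM, list members reaching 10 CPM in any cell (values for up to 8 of a list), genes within 500000 bases, and the 10 genes most like each member over 12 and over 11 cells; 1 gene of the last set is not reported here. Genes named outside this rule are list members under 10 CPM in each cell or at 0 (Ctsw, Kit and markers at 0), list members not in the table, the cell cycle genes of the study, the values of Ctsc and Stfa2, and genes said to be named after their values were seen. The members, lists and motifs were chosen with earlier results of these data known. Scalings (TMM of edgeR 4.0.16, median of ratios, total without the pair and mitochondrial genes), thinning to the lowest total, pseudocounts, gene filters and leaving out each cell were tried. The steps were tested on simulated data. Scripts ran under Python 3.11.15 with scipy 1.17.1, Biopython 1.88, numpy 2.4.6, matplotlib 3.10.9 and pandas 2.3.3.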

Additional observations from a re-analysis of the deposited data

How the results depend on the processing

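Of 194 recomputed values, 178 moved by less than the spread between cells, by 0.1 or less in rho, or by up to 1.5 times for counts and ranks. For the mean of Ctla2a that spread was an SD of 17543 CPM with cell 10 in it. The mean of 3418 CPM without cell 10 was therefore among the 178. The count of genes 4-fold higher in cell 10, 841, became 456 with a pseudocount of 5 CPM, 416 among genes whose mean reached 10 CPM and 172 against the highest of the other cells; that of 4-fold lower genes, 1525, became 551 with a pseudocount of 5 CPM and 4437 against the highest. The filter left fewer genes to compare, and the highest other cell is a higher reference, which is stricter for higher genes and laxer for lower ones. The ratio of cell 10 to the others was 24.5 to 26.0 for Ctla2a and 7.12 to 7.57 for Ctla2b under the other scalings, which moved the median of all genes in cell 10 from -0.11 to between -0.03 and 0.00. Leaving out 1 cell gave a mean of 3418 CPM (without cell 10) to 9180 CPM for Ctla2a and 95.9 to 145 CPM for Ctla2b, and a rank of 1 to 14 for Ctla2a. The rank correlation between both genes ran from 0.74 (without cell 8, 9 or 10) to 0.95 (without cell 4). Cell 4 had much Ctla2b for its Ctla2a, and the cause was not tested. The 10 genes most like Ctla2a kept 1 to 9 of their members when a cell was left out, those of Ctla2b 3 to 9, and each kept 2 with Pearson's r. The median percent of Ctla2b was 3.11 after thinning. Chosen after seeing the data were the spread without cell 9, which is given with the spread, and the median of the cathepsins above 0 in cell 10 and in the median of the others, 0.39 in place of 0.00. Also chosen then was the filter on markers over the other 11 cells, which left out Tie1, and the endothelial sum without Eng. No paired analysis was possible because there is 1 group. With no animal or culture named, the frequency of cells like cell 10 cannot be given.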
